A study of Mus musculus with 32 samples.

Results

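The transcripts of 8 genes of the AP-1 family were followed in bulk RNA-seq of mouse embryonic stem (mES) cells that were converted towards primitive endoderm (PrE) by a Dox-inducible GATA6 transgene. The members were the rows with the symbols Fos, Fosb, Fosl1, Fosl2, Jun, Junb, Jund and Atf3, 8 of the table's 54233 rows, and each of the 8 was high enough to be tested. The cells were of line KH2 (strain C57BL/6 in the labels) and carried the transgene TRE:GATA6-DSREd2, a single copy in which a TET-responsive element drives GATA6 and the red fluorescent protein DsRed2, so that every sample, the 0 h controls included, carried it. Cells at 0 h were kept without Dox in 2i medium, which holds inhibitors of MEK and GSK3 with LIF. Cells at 2, 4 and 8 h were in serum medium with LIF and 1 µg/mL Dox. Cells at the later times (16, 24, 48 and 96 h) had been given Dox in serum medium for 12 h and were then kept in serum medium without it. Each of the 8 time points had 4 replicates, 32 samples in all. The 0 h cells differ from all later ones in medium and in Dox at once, so the shares of medium and Dox in a difference from 0 h cannot be told apart.

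AP-1 is a dimer of basic leucine zipper (bZIP) proteins. A Jun protein (JUN, JUNB or JUND) pairs with another Jun, with a Fos protein (FOS, FOSB, FOSL1 or FOSL2) or with a relative such as ATF3, and the dimer binds short palindromic DNA sites. Many of these genes are immediate early genes, which are transcribed within minutes of a growth factor or stress signal through factors that already sit in the cell, and whose mRNAs are short-lived. MEK and ERK are the best known route from growth factors in serum to Fos, JNK and p38 are stress-activated kinases that act on Jun and on ATF proteins, and ATF3 is known as a stress-induced member that often represses its targets. In bulk samples, fewer cells with a transcript and less of it per cell cannot be told apart.

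Levels are given as normalized counts, the reads of a gene divided by the size factor of the sample. The samples held between 3190108 and 12301732 reads on genes, with a median of 8870662.5. The transgene's own row was at 0 in all 4 samples at 0 h and between 510.3 and 739.5 normalized counts at 2 h. A gene was called when it passed a false discovery rate (FDR) of 0.1, by Benjamini-Hochberg adjustment over 15227 tested genes in limma, and a change of 4-fold or more, that is 2 on the log2 scale, on log2(normalized count + 1). Of the PrE markers Gata4, Sox17, Sox7, Foxa2, Pdgfra, Dab2, Col4a1 and Lama1, 0 of 8 were called higher than at 0 h at 2 h, and 8 of 8 were at 24 h and at 96 h, while 1, 6 and 7 of 8 ES cell markers were called lower at these times. With the FDR alone, whatever the fold, 1 PrE marker was higher at 2 h (Pdgfra, log2 fold change 1.43 ± 0.14) and 1 lower (Sox17), and 6 of 8 ES cell markers were lower and 1 higher. The summed level of 8 fibroblast markers stayed between 3.26 and 34 normalized counts in all samples, with Dcn at 0 reads in every sample of 7 of the 8 time points. Replicates 1 and 2 resembled each other more than they did replicates 3 and 4 (median chi-square per degree of freedom of their reads 1.53 within and 10.3 between these sets), and the labels give no reason for it. Whether a change differed between these sets was tested by limma's set by time term. It passed the FDR in 23 of 120 results (8 members in 15 comparisons), 7 of Atf3, 5 each of Fos and Junb, 3 of Fosl1, 1 each of Fosb, Fosl2 and Jun and 0 of Jund, and these 23 are given for each set. Over all tested genes it passed in 0.906% (8 h against 4 h) to 32.6% (48 h against 0 h) of genes.

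The 8 genes lie on separate chromosomes except Junb and Jund, and 5 of them overlap a gene on the opposite strand. In GRCm38, Fos is at chr12:85473890-85477273, Fosb at chr7:19302696-19310051, Fosl1 at chr19:5447547-5455946 and Fosl2 at chr5:32135801-32157842. Jun is at chr4:95049034-95052222, Junb at chr8:84974484-84978718, Jund at chr8:70698949-70700616 and Atf3 at chr1:191170296-191218039. The largest overlap is that of Fosl1 with Ccdc85b, over 2767 bases, and the others are Jun with Junos (689 bases), Junb with Prdx2 (351 bases), Jund with Gm11175 (919 bases) and Atf3 with Gm24748 (108 bases). The libraries were stranded, but the strand setting of the counting is not given in the sources used here, so reads from these overlaps are uncertain. Prdx2 was far above Junb in every sample, with means from 1592 (96 h) to 2627 (0 h) normalized counts. Ccdc85b was low throughout, at 7.19 ± 4.26 normalized counts at 0 h and 0.687 ± 0.493 at 2 h (SD, n = 4), Junos was at most 4.21 in any sample, and Gm11175 and Gm24748 had no reads.

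The DNA just before the start of 5 members is shown because these genes carried matches to sites that bZIP or serum-responsive factors are known to use. RefSeq (GRCm38.p6) gave a promoter for 7 of the 8 members. The 250 bases before the start were searched for 6 motifs, chosen after the sequences had been seen: TGACG, the core of a cyclic AMP response element, TGACNTCA and TGANTCA, the full sites of ATF/Jun and of Fos/Jun dimers, TATAAA on the gene's strand, the CArG box bound by serum response factor, and the site bound by MEF2 factors. All but TATAAA were searched on both strands. The 200 bases that end at the base before the RefSeq start follow, 5′ to 3′ on the gene's strand, with the matches in capitals.
Fos (chr12:85473690-85473889, + strand): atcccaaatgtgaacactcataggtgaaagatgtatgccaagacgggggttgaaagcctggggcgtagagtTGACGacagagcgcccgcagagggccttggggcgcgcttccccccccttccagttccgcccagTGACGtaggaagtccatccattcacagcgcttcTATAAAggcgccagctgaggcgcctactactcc
Fosb (chr7:19310046-19310245, - strand): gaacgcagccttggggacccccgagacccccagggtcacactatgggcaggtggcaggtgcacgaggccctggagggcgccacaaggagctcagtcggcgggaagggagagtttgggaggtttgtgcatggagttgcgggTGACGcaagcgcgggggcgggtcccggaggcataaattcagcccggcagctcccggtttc
Jun (chr4:95052223-95052422, - strand): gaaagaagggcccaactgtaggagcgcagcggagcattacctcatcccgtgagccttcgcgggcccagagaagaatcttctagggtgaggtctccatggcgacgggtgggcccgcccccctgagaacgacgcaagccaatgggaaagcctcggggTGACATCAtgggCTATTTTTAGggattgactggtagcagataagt
Junb (chr8:84978749-84978948, - strand): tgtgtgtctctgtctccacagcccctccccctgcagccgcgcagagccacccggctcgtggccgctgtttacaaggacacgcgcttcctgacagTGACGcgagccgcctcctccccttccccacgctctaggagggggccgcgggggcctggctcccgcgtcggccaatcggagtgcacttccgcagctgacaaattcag
Atf3 (chr1:191183334-191183533, - strand): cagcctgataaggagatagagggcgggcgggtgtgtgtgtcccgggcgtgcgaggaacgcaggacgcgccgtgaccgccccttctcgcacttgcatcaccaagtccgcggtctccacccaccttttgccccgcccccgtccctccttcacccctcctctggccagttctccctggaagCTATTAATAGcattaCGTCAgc

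With the base before the start counted as -1, Fos carried TGACG at 2 places, -129 to -125 and -66 to -62, and the TATAAA box at -33 to -28. Fosb and Junb carried 1 TGACG each, and Atf3 had 1 on the opposite strand, printed as CGTCA. In all, 4 of 7 member promoters held TGACG, against 17.7% of 32817 RefSeq promoters. Jun, as the single member, held the full site TGACNTCA, as TGACATCA at -45 to -38, against 7.49% of all promoters. Jun and Atf3 each held a MEF2 site, against 2.92% of all promoters. TATAAA was in 7.60% of all promoters. No member window held TGANTCA or a CArG box, which 6.75% and 1.47% of all promoters held. Bases further upstream than these windows were not searched. The absence of a CArG box from the window of Fos thus does not show that Fos lacks such a site. TGACG is part of one form of TGACNTCA, but no member match counted for both. The window of Atf3 ends at the RefSeq start, and a longer GENCODE transcript begins further upstream. The windows of Fosl2 and Jund, which held none of the 6 motifs, end at RefSeq starts that lie 299 and 1210 bases from the nearest GENCODE start. These matches are letters in a window, with no binding measured here.

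At 2 h, the first time point in serum and Dox, 7 of the 8 members were above 0 h in every sample, without overlap, and 4 of them were called higher. Over all tested genes, 2.00% were called higher in this comparison and 0.348% lower. The 4 called members were Fosl1, Fosl2, Jun and Fosb. The share of all tested genes without overlap was not computed, so the 7 of 8 has no share to be set against. The median log2 fold change of the 8 members was 2.52, that of all tested genes was -0.03. The other time points are set against the same 4 samples at 0 h, so all comparisons with 0 h share them.

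**Figure D1:**
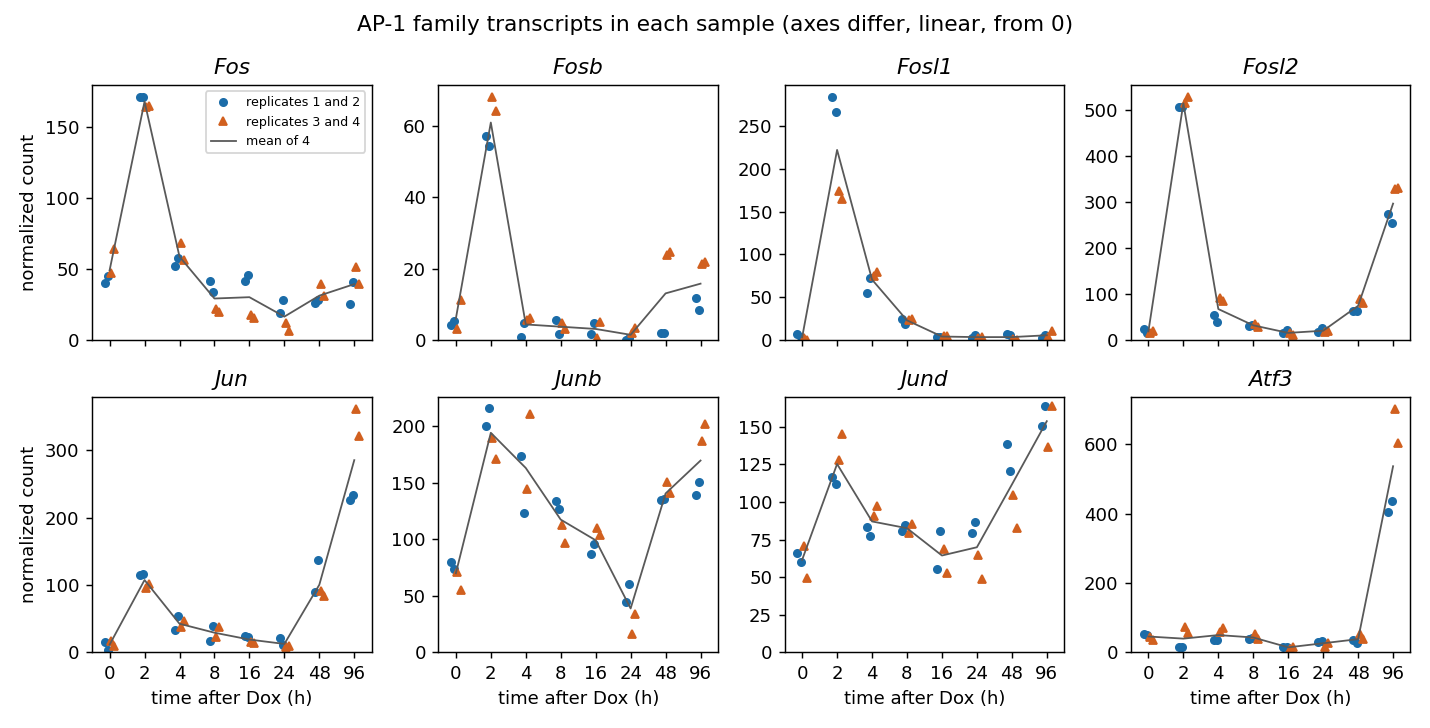
Normalized counts of the 8 AP-1 transcripts (linear axes from 0 that differ between panels) in each sample at 0 to 96 h, at evenly drawn time points; circles are replicates 1 and 2, triangles replicates 3 and 4, and the line joins the means of 4. Fosl1 rose to a mean of 222 at 2 h and was back at 4.14 by 16 h, Fosl2 had high levels at both 2 h (515) and 96 h (297), and Atf3 had its highest mean, 537, at 96 h.

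Fosl2, which codes for FRA-2, had 24.8, 15.6, 14.5 and 20.8 normalized counts in the 4 samples at 0 h and 508, 508, 516 and 529 at 2 h. The 2 h samples lay close together, far above every sample at 0 h. The log2 fold change was 4.73 ± 0.22 (SE; limma, adjusted p = 8.8e-17). Fosl1, which codes for FRA-1, had 6.90, 3.40, 2.42 and 0 normalized counts at 0 h, from 5, 5, 3 and 0 reads. At 2 h it had 284 and 266 in replicates 1 and 2 and 174 and 165 in replicates 3 and 4. The gene was thus close to absent in the uninduced cells and present in every sample at 2 h, at a lower level in replicates 3 and 4. Its log2 fold change was 6.04 ± 0.51 (limma, adjusted p = 8.0e-11). With so few reads at 0 h its size depended on the setting, between 4.82 and 6.52 over the alternatives run, and it was called in every one that kept the gene.

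Fos, the founding member and a classical serum-response gene, had 40, 44.8, 47.6 and 64.2 normalized counts at 0 h, so the uninduced cells already held it. At 2 h the 4 samples lay between 164 and 171. All 2 h samples were above all 0 h samples, and the log2 fold change of 1.77 ± 0.33 passed the FDR (limma, adjusted p = 6.2e-05) but not the 4-fold threshold. Fosb, known from lasting responses in neurons, rested on 3 to 8 reads per sample at 0 h, which gave 4.14, 5.44, 3.22 and 11.3 normalized counts. It had 57.1, 54.4, 68 and 64 at 2 h. The groups were well apart, with a log2 fold change of 3.26 ± 0.62 (adjusted p = 8.9e-05, limma).

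Among the Jun genes, Jun had the largest log2 fold change at 2 h, and the differences between the genes were not tested. Jun, whose protein can act on its own promoter, had 15.2, 3.40, 16.9 and 9.44 normalized counts at 0 h (5 to 21 reads) and 115, 116, 96.1 and 102 at 2 h. No 0 h sample came near the 2 h samples, and the log2 fold change was 3.33 ± 0.33 (limma, adjusted p = 2.7e-09). Junb, which often restrains JUN activity, had 80.1, 74.1, 70.9 and 54.8 at 0 h and 201, 216, 189.9 and 171 at 2 h. Jund, the member that is usually expressed at a steady level, had 66.3, 59.8, 70.9 and 49.1 at 0 h and 116, 112, 128 and 145 at 2 h. The samples of both genes did not overlap between the time points. Their log2 fold changes, 1.47 ± 0.23 for Junb and 1.02 ± 0.16 for Jund, passed the FDR (limma, adjusted p = 5.3e-06 and 9.5e-06) and stayed under 4-fold.

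Atf3 was the exception at 2 h, and its samples split by replicate set. It had 53.8, 50.3, 43.5 and 34 normalized counts at 0 h. At 2 h it had 15.6 and 15.9 in replicates 1 and 2 but 71.5 and 54.2 in replicates 3 and 4. Replicates 1 and 2 were thus below every 0 h sample, and replicates 3 and 4 were above every one. The pooled log2 fold change of -0.49 ± 0.35 (limma, adjusted p = 0.29) averages 2 opposite changes, -1.67 in replicates 1 and 2 and 0.68 in replicates 3 and 4. The difference between the sets, 2.35 ± 0.35, passed the FDR in limma's set by time term (adjusted p = 4.4e-05), as it did for 5.22% of all tested genes in this comparison. The transgene's row also stood higher in replicates 3 and 4 at 2 h, at 682 and 739.5 against 540.3 and 510.3 normalized counts in replicates 1 and 2. Its part in the split was not tested.

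**Figure D2:**
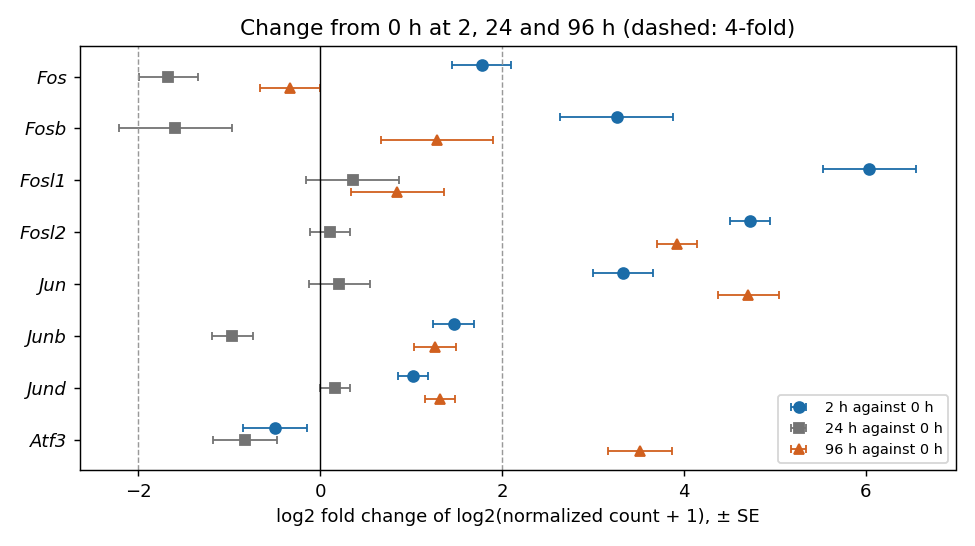
Log2 fold change from 0 h (horizontal axis, log2(normalized count + 1), bars ± SE from limma, 4 samples a time point) of each AP-1 gene at 2 h (circles), 24 h (squares) and 96 h (triangles). The 4 genes past the dashed 4-fold line at 2 h were Fosb, Fosl1, Fosl2 and Jun, no gene was past it at 24 h, and Jun, Fosl2 and Atf3 were past it at 96 h.

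After 2 h the early members kept different shares of their 2 h means, and differences in rate were not tested. From 2 h to 4 h, 2 members were called lower, against 0.230% of all tested genes, and none was called higher (0.558% of all). Fosb went from 60.9 ± 6.25 to 4.38 ± 2.32 normalized counts (SD, n = 4), 7.19% of its 2 h mean, with 0.989, 4.85, 5.61 and 6.07 in the 4 samples. Its 4 h samples overlapped those at 0 h (log2 fold change -0.42 ± 0.62, limma, adjusted p = 0.62). Fosl2 fell to 67.6 ± 24.9, 13.1% of its 2 h mean. Their log2 fold changes from 2 h were -3.67 ± 0.62 for Fosb and -2.99 ± 0.22 for Fosl2 (limma, adjusted p = 6.5e-05 and 3.6e-11).

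Fosl1 came down over several time points. Of its 2 h mean, 31.8% was left at 4 h, 10.4% by 8 h and 1.87% by 16 h. Against 0 h it was the single member called higher at 4 h (log2 fold change 4.43 ± 0.51, limma, adjusted p = 3.3e-08), where 2.69% of all genes were called higher and 0.709% lower. It was so again at 8 h (2.86 ± 0.51, limma, adjusted p = 3.5e-05), where 3.40% were called higher and 1.31% lower. From 8 h to 16 h it was called lower, from 25.1, 18.7, 23.3 and 25.1 to 3.48, 3.26, 4.66 and 5.18 normalized counts, with a log2 fold change of -2.24 ± 0.51 (adjusted p = 0.0024, limma) against 0.539% of all genes called lower and 0.499% higher. None of the 4 samples at 16 h reached the lowest sample at 8 h. The call was lost, with adjusted p = 0.104 in limma, when the samples of each replicate set were averaged.

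At 4 h the other early members kept larger shares of their 2 h means, 35.0% for Fos, 39.5% for Jun, 69.5% for Jund and 84.0% for Junb. These shares include the level held before the rise, so they do not rank how fast the rises were lost. The 0 h mean was 29.3% of the 2 h mean for Fos and 36.0% for Junb. It was 1.43% for Fosl1, 3.67% for Fosl2 and 9.91% for Fosb. Jund had means of 61.5 at 0 h and 125 at 2 h, and Jun had 11.2 and 107. Fos at 4 h, with 52.4, 58.1, 68.2 and 56.3 normalized counts, already overlapped its 0 h samples. Jun at 4 h, with 32.6, 53.3, 37.7 and 45.9, remained above all of its 0 h samples, and its log2 fold change from 0 h, 1.99 ± 0.33 (limma, adjusted p = 1.6e-05), lay at the edge of the 4-fold threshold. Jun passed that threshold in 4 of the fits with 1 sample left out, those without 0 h replicate 1 or 3 or without 4 h replicate 1 or 3, where its log2 fold change was 2.04 to 2.24. Fosl2 at 4 h was 1.73 ± 0.22 above 0 h on the log2 scale (limma, adjusted p = 2.0e-07), with 1.19 in replicates 1 and 2 and 2.28 in replicates 3 and 4 (limma's set by time term, adjusted p = 0.045). Atf3 at 4 h again lay on opposite sides of 0 h in the sets, at -0.57 and 0.72 (set by time term in limma, adjusted p = 0.022). Such a term passed in 9.27% of all tested genes at 4 h. Junb at 8 h, with 134, 127, 113 and 96.6, was still above every 0 h sample (log2 fold change 0.74 ± 0.23, limma, adjusted p = 0.0088).

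The summed level of the family per length was lowest at 24 h, but this was not a low of every member. The sum was 111 per kb of exon at 16 h and 85.7 at 24 h, while Junb had 43.1 and 16.8. Fos, Fosb and Junb had their lowest means at 24 h. Fosl2 and Atf3 had theirs at 16 h, and Fosl1, Jun and Jund at 0 h. No member was called against 0 h at 16 h (4.03% of all genes higher, 2.40% lower) or at 24 h (4.85% higher, 4.34% lower), and none was from 4 to 8 h (0.565% higher, 0.250% lower) or from 16 to 24 h (0.525% higher, 0.729% lower). Several members lay below 0 h at 24 h without reaching 4-fold. Fos had 19.2, 28.2, 12.2 and 6.52 normalized counts, all below its 0 h samples, with a log2 fold change of -1.67 ± 0.33 (adjusted p = 6.9e-05, limma). Junb had 44.4, 60.1, 16.2 and 34.2, with a log2 fold change of -0.96 ± 0.23 (adjusted p = 0.0006, limma), and 1 of its samples lay within its 0 h range. It was -0.57 in replicates 1 and 2 and -1.36 in replicates 3 and 4 (limma's set by time term, adjusted p = 0.056). From 16 h, where it had 87.0 to 109.8, Junb had fallen without overlap (-1.47 ± 0.23, limma, adjusted p = 1.7e-05), by a log2 fold change of -0.81 in replicates 1 and 2 and of -2.13, past 4-fold, in replicates 3 and 4 (set by time term in limma, adjusted p = 0.0063, passed by 8.55% of all genes). Fosb, at 0 to 3.26, had a log2 fold change of -1.59 ± 0.62 (adjusted p = 0.029, limma) and overlapped 0 h. Atf3 had its lowest levels at 16 h, with 15.7, 15.5, 10.6 and 14.7 normalized counts, all below every 0 h sample. That was a log2 fold change of -1.61 ± 0.35 (adjusted p = 0.00037, limma). Fosl2, Jun, Jund and Fosl1 at 24 h overlapped their 0 h samples, with log2 fold changes between 0.11 and 0.36 and adjusted p of at least 0.42 in limma. Of these, Jun at 24 h had 0.94 in replicates 1 and 2 and -0.52 in replicates 3 and 4 (limma's set by time term, adjusted p = 0.058). Fosl1 at 16 h against 0 h had -0.43 and 1.68 in the 2 sets (adjusted p = 0.050, limma), from few reads.

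Fos at 16 and 24 h was lower, relative to 0 h, in replicates 3 and 4 than in replicates 1 and 2. At 16 h replicates 1 and 2 had 41.7 and 45.6 normalized counts, as at 0 h, while replicates 3 and 4 had 18 and 15.5. Within the sets, the log2 fold change from 0 h was 0.04 and -1.67 at 16 h and -0.84 and -2.498 at 24 h, and the differences passed the FDR (limma's set by time term, adjusted p = 0.0017 and 0.0013). At 8 h the values were -0.17 and -1.37 (adjusted p = 0.050, limma). The term passed in 8.49, 19.3 and 29% of all tested genes at 8, 16 and 24 h, so such a split was common among genes at the later of these times. At 24 h Fos was past the 4-fold threshold in replicates 3 and 4 alone.

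**Figure D3:**
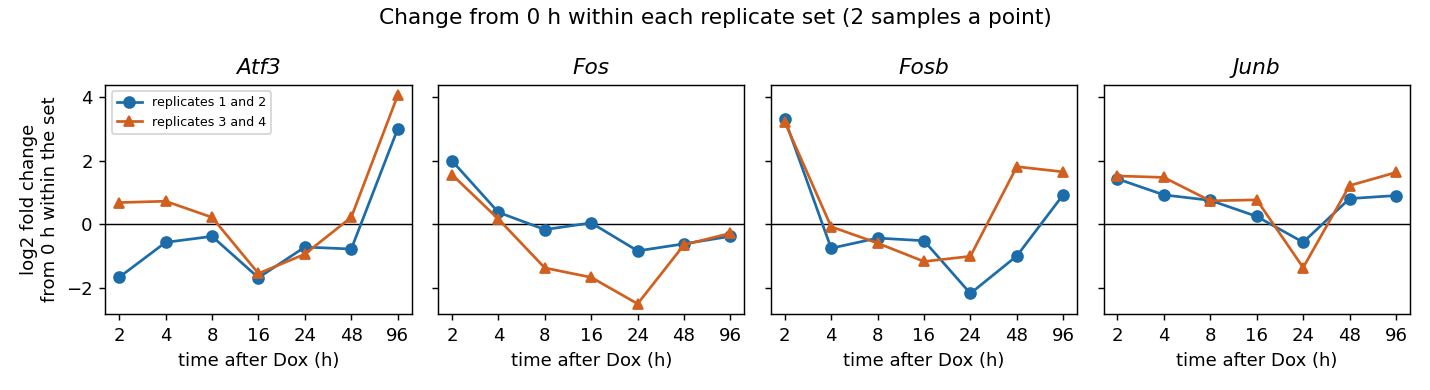
Log2 fold change from 0 h (vertical axis, log2(normalized count + 1)) within replicates 1 and 2 (circles) and within replicates 3 and 4 (triangles) for 4 AP-1 genes at 2 to 96 h, each point from 2 samples a time point, evenly drawn. The lines of Atf3 are on opposite sides of 0 at 2 h (-1.67 and 0.68), those of Fosb at 48 h (-0.996 and 1.81), and those of Fos are apart at 16 and 24 h.

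A second, differently composed increase followed at 48 and 96 h, when Dox had been withdrawn since 12 h. The transgene's row was not back at 0, with 50.8 ± 29.9 normalized counts at 24 h, 81.6 ± 15.2 at 48 h and 115 ± 49.8 at 96 h (SD). Its part in the increase was not tested. From 24 to 48 h, 1 member was called higher, Jun, against 2.51% of all genes, and none lower (1.41%). It had 21.6, 10.6, 8.12 and 8.97 normalized counts at 24 h and 89.5, 138, 90.6 and 83.6 at 48 h. The 48 h samples were all above the 24 h samples, and replicate 2 stood above the other 3. The log2 fold change was 2.997 ± 0.33 from 24 h and 3.21 ± 0.33 from 0 h (limma, adjusted p = 1.3e-08 and 8.4e-10). Jun was the single member called against 0 h, where 8.48% of all genes were called higher and 7.09% lower. The counts against 0 h, 1 of 8 higher and 0 of 8 lower, are near these shares.

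Other members rose from 24 to 48 h by less than 4-fold. Junb went from 38.8 ± 18.4 to 141 ± 7.21 normalized counts (log2 fold change 1.97 ± 0.23, limma, adjusted p = 2.4e-08) and Fosl2 from 20.4 ± 4.49 to 74.6 ± 13.2 (1.83 ± 0.22, adjusted p = 5.9e-08; SD, n = 4). Neither gene's samples overlapped between the 2 time points. Both lay close to the threshold, and Junb was past it without 24 h replicate 1 or 2, at 2.08 and 2.23. Within the sets Junb rose by 1.37 in replicates 1 and 2 and 2.57 in replicates 3 and 4 (limma's set by time term, adjusted p = 0.013, passed by 8.16% of all genes). From 24 to 48 h Fos had 0.22 and 1.85 and Atf3 -0.06 and 1.16 in the sets (adjusted p = 0.0058 and 0.036, limma). Fosl2 against 0 h at 48 h had a log2 fold change of 1.94 ± 0.22 (adjusted p = 5.4e-09, limma), and passed the threshold without 0 h replicate 1 or 48 h replicate 1 or 2, at 2.00 to 2.07.

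Fosb at 48 h was high in one replicate set and low in the other. It had 1.88 normalized counts in each of replicates 1 and 2 and 23.8 and 24.8 in replicates 3 and 4. Replicates 1 and 2 were below all 0 h samples, but from 2 reads and 1 read against 3 to 8 reads at 0 h. The decrease in this set is thus near the floor. Replicates 3 and 4, from 27 and 24 reads, were above all 0 h samples. Within the sets the log2 fold change from 0 h was -0.996 and 1.81, a difference of 2.80 ± 0.81 (limma's set by time term, adjusted p = 0.0094). Of all tested genes 32.6% passed that term in this comparison, Atf3 among them (-0.78 and 0.22, adjusted p = 0.035). From 24 to 48 h the log2 fold change of Fosb, 2.00 ± 0.62 (limma, adjusted p = 0.0077), lay at the threshold and was past it without 24 h replicate 3 or 4 or 48 h replicate 1 or 2, at 2.16 to 2.52. At 96 h Fosb was measured in both sets, with 11.7 and 8.41 in replicates 1 and 2 and 21.3 and 21.7 in replicates 3 and 4.

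At 96 h, 3 members were called higher than at 0 h and none lower, against 9.28% and 10.3% of all tested genes, and the highest counts of the family were those of Atf3. Atf3 had 33.9, 26.4, 52.8 and 38.2 normalized counts at 48 h and 405, 436, 702 and 603 at 96 h. The lowest 96 h sample was thus far above the highest sample of any other time point, 71.5 at 2 h. The log2 fold change from 48 h was 3.80 ± 0.35 and that from 0 h 3.52 ± 0.35 (limma, adjusted p = 4.8e-10 and 2.9e-10). From 48 to 96 h Atf3 was the single member called, against 1.30% of all genes called higher and 2.40% lower. Against 0 h the rise was 2.99 in replicates 1 and 2 and 4.04 in replicates 3 and 4, which differed (limma's set by time term, adjusted p = 0.028), as 30.7% of all tested genes did, and it was past 4-fold in each.

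Jun and Fosl2 were the other 2 members called at 96 h. Jun had 226, 233, 362 and 321 normalized counts, above every sample at any earlier time, with a log2 fold change from 0 h of 4.71 ± 0.33 (limma, adjusted p = 1.1e-13). Fosl2 had 275, 255, 329 and 329.98, all above its 48 h and below its 2 h samples. The log2 fold change from 0 h was 3.92 ± 0.22 (limma, adjusted p = 4.3e-16), and that from 48 h, 1.99 ± 0.22 (adjusted p = 1.5e-08), was just under the threshold and past it in 4 of the fits with 1 sample left out (without 48 h replicate 3 or 4, or 96 h replicate 1 or 2), at 2.02 to 2.08. Junb and Jund were also above 0 h without overlap, at 170 ± 29.9 and 154 ± 12.9 (SD, n = 4). Their log2 fold changes were 1.26 ± 0.23 and 1.32 ± 0.16 (limma, adjusted p = 1.2e-05 and 2.3e-08). For Junb they were 0.90 in replicates 1 and 2 and 1.63 in replicates 3 and 4 (limma's set by time term, adjusted p = 0.079).

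Fos and Fosl1 did not pass the FDR at 96 h against 0 h, and Fosb passed it without reaching 4-fold. Fos had 25.5, 41, 51.5 and 39.7 normalized counts at 96 h, which overlapped the 0 h samples (log2 fold change -0.33 ± 0.33, limma, adjusted p = 0.37). Fosl1 had 2.12, 6.31, 3.77 and 10.4, from 2 to 11 reads, also within reach of 0 h (0.85 ± 0.51, limma, adjusted p = 0.14). That pooled value averages -0.30 in replicates 1 and 2 and 2.00 in replicates 3 and 4 (set by time term in limma, adjusted p = 0.020). From 48 to 96 h Fosl1 likewise had -0.57 and 2.15 (adjusted p = 0.014, limma, against 14.2% of all genes). Fosb, with 15.8 ± 6.77 (SD, n = 4), passed the FDR but overlapped 0 h (1.28 ± 0.62, limma, adjusted p = 0.062). With total reads in place of the size factors, the median log2 fold change of all genes moved by -0.26 at 96 h and -0.13 at 48 h against 0 h, by -0.21 at 96 h against 24 h, by -0.16 against 2 h and by -0.12 against 48 h. Under that scaling no member's log2 fold change turned its sign in the 15 comparisons except that of Fosl1 at 48 h against 0 h, which was 0.06 and near 0 under both.

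The comparison of 96 h with 24 h lies within serum medium without Dox. The transgene's row held reads in every sample of both times, from 21.9 to 85.3 normalized counts at 24 h and from 55.7 to 178 at 96 h. Of the 8 members, 5 were called higher, against 4.61% of all tested genes, and none lower (5.77%). These were Jun (log2 fold change 4.50 ± 0.33), Atf3 (4.35 ± 0.35), Fosl2 (3.81 ± 0.22), Fosb (2.87 ± 0.62) and Junb (2.23 ± 0.23), with limma's adjusted p from 3.6e-15 for Fosl2 to 0.00018 for Fosb. Fosb rested on 0 to 3.26 normalized counts at 24 h, and its call was lost with a pseudocount of 5 (1.65) and on the deposited values (1.96). The call of Junb did not hold in replicates 1 and 2, where its log2 fold change was 1.47 against 2.99 in replicates 3 and 4 (set by time term, adjusted p = 0.00078), or without 24 h replicate 3, at 1.87. Fos rose by 1.34 ± 0.33 and Jund by 1.15 ± 0.16 (limma, adjusted p = 0.00076 and 4.5e-07), under 4-fold, while Fosl1 had 0.49 ± 0.51 (adjusted p = 0.42). The rise of Fos was 0.46 in replicates 1 and 2 and 2.21, past 4-fold, in replicates 3 and 4 (limma's set by time term, adjusted p = 0.0017). That of Atf3 was 3.71 and 4.98 (adjusted p = 0.017, limma), past 4-fold in each set. The term passed in 14.5% of all tested genes.

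The comparison of 96 h with 2 h sets the late increase against the early one. Both groups were in serum, at 2 h with Dox and at 96 h without. Atf3 was called higher at 96 h (4.01 ± 0.35, limma, adjusted p = 1.7e-11), against 9.00% of all genes, by 4.66 in replicates 1 and 2 and 3.36 in replicates 3 and 4 (limma's set by time term, adjusted p = 0.0087, passed by 24.6% of all genes). Fosl1 (-5.19 ± 0.51, adjusted p = 1.9e-10) and Fos (-2.11 ± 0.33, adjusted p = 1.1e-06) were called lower in limma, against 10.6% of all genes. The 1 of 8 members called higher is near the share of all genes, and the 2 of 8 called lower is a small count. Fos lost the call without 96 h replicate 1, at -1.92. Jun was higher at 96 h by 1.38 ± 0.33 and Fosl2 lower by a log2 fold change of -0.80 ± 0.22 (adjusted p = 0.00051 and 0.0018). Fosb was also lower at 96 h, with -1.97 ± 0.62 on the log2 scale (adjusted p = 0.0052 in limma), just under 4-fold. It was past 4-fold with a pseudocount of 0.5 (-2.01), total-read scaling (-2.12), limma-voom (-2.002), in replicates 1 and 2 (-2.38) and without 2 h replicate 1 or 2 or 96 h replicate 3 or 4 (-2.15 to -2.002). Junb and Jund overlapped between the 2 times, with log2 fold changes of -0.21 ± 0.23 and 0.30 ± 0.16 (adjusted p = 0.42 and 0.10).

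Per length, the make-up of the family changed with each phase. Normalized counts per kb of exon were used for levels between genes, since Fosl2 has 9680 exonic bases and Jund 1668. At 0 h Jund (36.9 ± 5.67 per kb), Junb (30.4 ± 4.70), Atf3 (21.1 ± 4.05) and Fos (20.9 ± 4.47) held 31.4, 25.9, 17.98 and 17.8% of the summed mean, and each overlapped its neighbour in this order. Jun (3.52), Fosl2 (1.96), Fosl1 (1.56) and Fosb (0.966) stood below, with a gap between Fos and Jun that no sample bridged. At 2 h Fosl1 had the highest mean, 109 ± 30.2 per kb, followed by Junb (84.4), Jund (75.1) and Fos (71.4), but its samples overlapped those of Junb. The order of close genes depended on the length used. With the longest transcript (6537 bases for Fosl2), the mean of Fosl2 stood above that of Jund at 2 h. That of Junb then stood above Jund at 0 and 96 h.

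The order turned again over the later times. At 8 h Junb (51.0 per kb) and Jund (49.5) led and overlapped, and at 24 h Jund led alone (41.9, from 29.3 to 51.8), above Junb (16.8, from 7.06 to 26.1). At 96 h Atf3 had 249 per kb (188 to 326), or 44.7% of the summed mean of the 8 genes, and no sample of it overlapped Jund (92.2), Jun (89.6) or Junb (73.7). Those 3 Jun genes overlapped in their order at 96 h, while Fosl2 (30.7) and Fos (16.8) were below them. The sum of the 8 means per kb went from 117 at 0 h to 455 at 2 h, then to 85.7 by 24 h and 557 by 96 h.

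**Figure D4:**
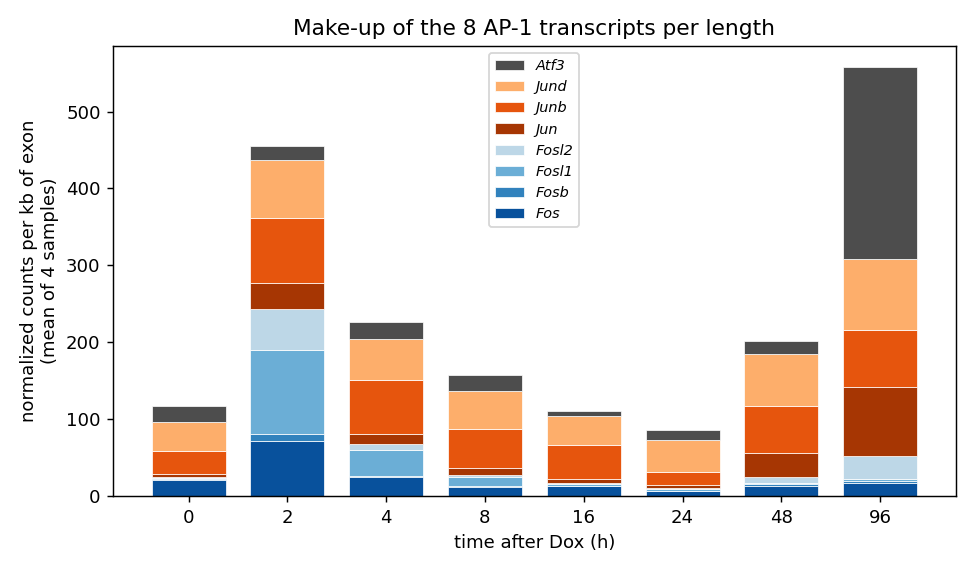
Mean normalized counts per kb of exon (vertical axis, from 0) of the 8 AP-1 genes, stacked, at 0 to 96 h (evenly drawn), each block the mean of 4 samples. The stacks at 2 h (455) and 96 h (557) are the tallest, with Fosl1 (109) the widest block at 2 h and Atf3 (249) at 96 h.

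Among other bZIP genes of the AP-1 class, the calls were mostly of Maf genes. Over all tested genes, 2.00, 4.85 and 9.28% were called higher than at 0 h at 2, 24 and 96 h and 0.348, 4.34 and 10.3% lower, and the counts of this and the other lists stand against these shares. Of 12 listed, 9 were tested, and 1 was called higher at 2 h, the small Maf gene Maff. The list's median log2 fold change was 0.46, 0.31 and 0.65 (2, 24 and 96 h), where that of all tested genes was -0.03, 0.00 and -0.03. Maff went from 20.9 ± 14.2 to 337 ± 44.2 normalized counts (log2 fold change 4.22 ± 0.32, limma, adjusted p = 6.3e-12). None was called at 24 h. At 96 h Maff (2.29 ± 0.32), Mafk (2.06 ± 0.13) and Maf were called higher and Batf2 lower. The calls of Maf and Batf2 rested on low counts. Maf had no reads in any 0 h sample and 7.54 ± 5.22 normalized counts at 96 h (SD, n = 4). Batf2 had 6.10 ± 3.69 at 0 h, from at most 6 reads per sample, and no reads in any 96 h sample.

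Among the MAP kinase genes upstream of AP-1, 1 of 19 kinases and 6 of 10 phosphatases were called higher at 2 h, where 2.00% of all tested genes were. The kinase was the p38 kinase Mapk11, from 30.9 ± 11.6 to 177 ± 27.1 normalized counts (log2 fold change 2.54 ± 0.22, limma, adjusted p = 1.1e-10). Another p38 kinase, Mapk13, was the single one called lower, at 24 h (-2.02 ± 0.31) and 96 h (-3.30 ± 0.31), and 1 of 19 is near or below the share of all genes called lower at these times. The phosphatases are dual specificity enzymes that switch MAP kinases off, and none was called lower at 2 h (0.348% of all). Their median log2 fold change was 2.24, 0.42 and 1.47 (2, 24 and 96 h), and that of the kinases was -0.06, 0.17 and 0.20. Dusp5, which acts on ERK in the nucleus, went from 22.1 ± 7.72 to 696 ± 218 (4.92 ± 0.23, adjusted p = 7.4e-17), Dusp4 had a log2 fold change of 4.55 ± 0.36, and Dusp2, with at most 4 reads per sample at 0 h, reached 36.8. At 24 h Dusp4, Dusp9 and Dusp10 were called higher, and at 96 h Dusp8, Dusp9 and Dusp4 were. The ERK phosphatase Dusp9 reached 6823 ± 295 normalized counts at 96 h from 220.2 ± 79.2 at 0 h.

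Of 21 other immediate early genes tested, 8 were called higher at 2 h and none lower, and the list's median log2 fold change was 1.49, 0.01 and 0.86 (2, 24 and 96 h). Egr3 had at most 1 read per sample at 0 h and 419.8 ± 118 normalized counts at 2 h, and Egr2, likewise with at most 1 read, had 46.5 ± 5.99. Arc, an activity-regulated gene, rose by 3.67 ± 0.16 on the log2 scale. At 24 h Klf6 was called higher and Arc lower. At 96 h 5 were called higher and 2 lower. The higher ones were led by Cyr61 (log2 fold change 5.17 ± 0.20) and Ctgf (4.88 ± 0.23), which code for matrix proteins, and by Nr4a3, which had no reads at 0 h and 30.6 ± 10.8 normalized counts at 96 h. The lower ones were Arc (-3.28 ± 0.16) and Klf10 (-2.17 ± 0.16).

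Textbook AP-1 targets mostly rose at 2 h and moved both ways at 24 and 96 h. Of 18 listed, 12 were tested, and 2 were called higher at 2 h, Plaur, the urokinase receptor, and Hbegf, an EGF receptor ligand. Plaur went from 45.9 ± 23.3 to 2786 ± 88.9 normalized counts (log2 fold change 6.03 ± 0.24, limma, adjusted p = 1.7e-18), and Hbegf rose by 3.98 ± 0.22 on the log2 scale. The list's median was 1.37, 0.52 and 1.06 (2, 24 and 96 h) in log2 fold change. With the FDR alone, whatever the fold, 9 of 12 were higher and 1 lower at 2 h. At 24 h and again at 96 h, 7 were higher and 4 lower. At 24 h Plaur and the protease gene Mmp9 were called higher and the metallothionein gene Mt2 was called lower. At 96 h Plaur (5.93 ± 0.24), Cd44 (3.29 ± 0.41) and Hbegf (2.098 ± 0.22) were called higher. Cyclin D1 (Ccnd1, -4.40 ± 0.13), Mt2 (-3.36 ± 0.29) and osteopontin (Spp1, -2.58 ± 0.13) were called lower. Plaur, like Fosl2, thus had high means at 2 h and at 96 h, 2786 and 2649 normalized counts.

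Stress genes that are often induced along with Atf3 moved both ways at 96 h. Of 13 genes of the integrated stress response, 5 were called lower (10.3% of all tested genes) and none higher (9.28%, so that none of 13 is near the share of all genes), with a list median of -0.76 in log2 fold change (-0.15 at 2 h and -0.49 at 24 h). Nupr1 went from 709 ± 59.2 to 14.3 ± 3.54 normalized counts (log2 fold change -5.57 ± 0.31, limma, adjusted p = 4.6e-16), with Slc7a11 (-3.55 ± 0.58), Chac1 (-3.35 ± 0.42), Trib3 and Asns also lower. With the FDR alone, 8 of 13 were lower and 3 higher at 96 h against 0 h. The 3 were Sesn2 (0.97 ± 0.14), Ppp1r15a (0.84 ± 0.13) and Ddit3 (0.60 ± 0.25), with limma's adjusted p of 2.2e-07, 1.2e-06 and 0.029. Against 24 h, 4 were higher, with Sesn2 at 1.57 ± 0.14 and Ppp1r15a at 1.25 ± 0.13. At 2 h 1 was called higher, Cebpb (2.14 ± 0.37), and at 24 h 1 lower, Slc7a11 (-2.26 ± 0.58). Of 6 tested heat shock genes none was called at 2, 24 or 96 h, with medians of 0.39, 0.05 and 0.15 in log2 fold change. With the FDR alone, 4 of the 6 were higher at 2 h, and at 96 h 2 were higher, Hspa1b (0.99 ± 0.27) and Dnajb1 (0.70 ± 0.10), and 2 lower.

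The genes whose 8 time point means followed a member's most closely differed between members. The likeness was Pearson's r of log2(normalized count + 1) over 8 time points, among 9957 tested genes with a highest mean of at least 100, and is a description of points that share libraries. Fosl1 was most like Trpv3 (r = 0.998 over 8 time points, 0.90 over 32 samples), Plec (0.98) and Socs5 (0.98). Fosl2 was most like the TNF receptor gene Tnfrsf1a (0.98), Brox (0.97) and Ubald1 (0.96), and Fosb was most like Bhlhe40 (0.96), Ubald1 (0.96) and Csrnp1 (0.93). Jun was most like Mef2a (0.99), Fbrs (0.98) and Mark2 (0.97), and Mef2a was also among the 3 closest to Jund (0.97), with Pdcl3 (0.98) and Pard6b (0.97). Fos was most like Ppp1r13l (0.98), Fubp3 (0.97) and 2310022A10Rik (0.96), and Junb was most like Map1lc3a (0.96), Actn4 (0.92) and Zfp36 (0.92). Atf3 was most like Lzic (0.99), Slc19a2 (0.97) and Sgcb (0.96). Over 8 time points, Jun and Jund were the most alike members (0.98), and Atf3 had its lowest r with Fosl1 (-0.07) and Fos (0.09).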

How the data were processed

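Bulk RNA-seq of 32 samples was used. Per the submitters' processing notes and the methods, the authors checked reads with FastQC 0.11.8, cut adapters off with cutadapt 2.7, mapped the rest with HISAT2 2.1.0 to GRCm38.p6, counted reads per gene by featureCounts (Subread 1.6.4) on GENCODE genes, and applied the variance stabilizing transformation of DESeq2. The deposited values are on this log2 scale, in 54233 rows, of which 29140 had no symbol; 29046 took theirs from a table that pairs identifiers and symbols. The transformation was undone from its value at 0 reads, which gave whole reads for 100% of values (within 0.01 reads). Reads ranged from 3190108 to 12301732 per sample. Counts cover counting error only.

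The test took in 15227 genes that reached 10 normalized counts in 4 or more samples. It was limma 3.58.1 (R 4.3.3) on log2(normalized count + 1) (lmFit, contrasts, eBayes with a trend, all 32 samples, 15 comparisons, two-sided) at FDR < 0.1 and 4-fold. A fold change with this pseudocount understates the change of low genes. The procedure was tested on simulated data. The study's reporting summary describes replicate experiments as independent, for all assays together, and neither it nor the labels say whether these samples came from separate cultures, so p-values measure the spread between these samples, which may be technical. The main fit took the 4 samples of a time point as independent, although samples of the same replicate set were more alike. Its SEs and p-values may therefore be too small. Some passes of the FDR were lost in an alternative, such as that of Fos at 96 h against 24 h (highest limma adjusted p = 0.12). The 4 members called higher at 2 h stayed at 0.017 or below in every alternative that kept them in the test. Levels per kb used all exonic bases in GENCODE M21 and are descriptions. Promoters came from RefSeq (GRCm38.p6).

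The 8 members, the gene lists and the tests were chosen with earlier results of these data known. One gene of the list of other bZIP factors was taken out after its values were seen and is not reported here. Genes outside the family are named where they had the largest changes among those called in their list at 2 or 96 h (up to 3), or where 3 or fewer were called, and, for likeness, as the 3 closest per member. Alternatives covered the pseudocount, the filter, scaling, a block for the replicate number, fits of 2 time points alone, limma-voom, the deposited values, the FDR, each replicate set, and leaving out each replicate. Averaging each set and the set by time term were added after seeing the data. Figures were drawn with matplotlib 3.10.9 in Python 3.11.15.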

Additional observations from a re-analysis of the deposited data

Results flagged for a closer look

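In each of the 64 groups of 4 samples (8 members at 8 time points), the gap of the highest or lowest sample to its nearest neighbour was set against the group's range. The share passed Dixon's critical value for 4 samples in 2 groups, and chance alone passes about 1 in 20. Jun at 48 h stood at 137.6 normalized counts in replicate 2, against 83.6 to 90.6 in the other 3 samples. Atf3 at 8 h stood at 52.9 in replicate 3, against 38.0 to 40.2 in the others. Jun remained called higher at 48 h, against 0 h and against 24 h, in each fit with 1 sample left out.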

How the results depend on the processing

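No member's log2 fold change reversed its sign as a called value under any alternative, and of the 630 counts of called members recomputed, 584 stayed within 1.5 times the count reported. Against 0 h, the count called higher at 2 h (4) became 2 under the filter of a mean of at least 50, which removes Fosb and Fosl1 from the test. The count at 4 h (1) became 2 with a pseudocount of 0.5, with limma-voom and in each replicate set alone, and 0 under that filter. The count at 8 h (1) became 0 with a pseudocount of 5, under that filter and in replicates 1 and 2. The count at 48 h (1) became 2 with limma-voom and in replicates 3 and 4. At 24 h 1 member was called lower in each set alone in place of 0, Fosb in replicates 1 and 2 and Fos in replicates 3 and 4. From 8 to 16 h the count called lower (1) became 0 with a pseudocount of 5, under the filter, on the deposited values and with averaged sets, and from 2 to 4 h (2) it became 1 under the filter. From 16 to 24 h 1 was called lower in replicates 3 and 4 in place of 0. From 24 to 48 h the count called higher (1) became 2 with a pseudocount of 0.5 and with limma-voom and 4 in replicates 3 and 4, and from 48 to 96 h (1) it became 2 in each set alone. At 96 h against 2 h the count called lower (2) became 1 with a pseudocount of 5, under the filter, on the deposited values and in replicates 3 and 4. With 1 sample left out, the counts ranged from 1 to 2 at 4 h and 48 h against 0 h, from 1 to 2 at 48 h against 24 h and at 96 h against 48 h, from 1 to 3 lower at 96 h against 2 h, and from 4 to 5 at 96 h against 24 h. The cause of these changes was not tested, except where a gene was no longer in the test.

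The replicate numbers do not pair the samples: deviations of same-numbered samples from their time point means correlated by 0.196 on average (-0.043 to 0.480, above 0.1 in 75 of 112 pairs), as did those of the other number in the same set (0.196). With the replicate block the counts of called members were the same in all 15 comparisons (4 at 2 h and 3 at 96 h against 0 h). Per length, 23 of 384 levels moved by more than 1 SD, 22 of them with the length of the longest transcript. The few reads of Fosl1, Fosb and Jun at 0 h limit the size of their early fold changes.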
